A study of Homo sapiens with 5 samples.

Results

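The Siglecs are a family of cell surface receptors that bind sialic acid, the sugar that caps many chains on glycoproteins and glycolipids. The genes described here were 10 entries found by symbol among the 51055 gene entries counted: SIGLEC1, CD22, CD33, SIGLEC5, SIGLEC6, SIGLEC7, SIGLEC9, SIGLEC10, SIGLEC12 and SIGLEC14. The group was chosen by its SIGLEC1 counts in these libraries, which were high in 1 set and absent from another. The SIGLEC1 values are therefore given as a description without a test, and of the other 9 genes 8 had enough counts to be tested. All libraries came from HL60, an established human line from a promyelocytic leukaemia, whose cells resemble immature granulocytes. UNT is the untransduced line (n = 1). SCR cells (n = 2) carry a control lentivector that the labels call both scramble and empty, and ZIP cells (n = 2) carry a lentivector whose hairpin is antisense to miR-378a-3p. Both kinds of transduced cell were infected at a multiplicity of 20 in the presence of polybrene (8 µg/mL), and puromycin at 2 µg/mL was kept on them between days 3 and 8. Both vectors express GFP, so viral sequence and drug selection set SCR and ZIP apart from UNT.

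Most Siglecs of human myeloid cells carry tyrosine motifs in their tails that recruit the phosphatases SHP-1 and SHP-2 and dampen activation. A few, such as SIGLEC14, have no such motif and pair with the activating adaptor DAP12. SIGLEC1, also called sialoadhesin or CD169, is a long adhesion receptor of macrophages without an inhibitory motif, and interferon induces it. CD33 is the classical surface marker of myeloid progenitors and acute myeloid leukaemia, and CD22 is the Siglec of B cells.

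The libraries held 24406580 to 30925067 counts each, and the members together took 0.0121% of the counts in UNT, 0.0170% and 0.0171% in SCR, and 0.0128% in each ZIP library. At these depths 3 counts, the limit that a count of 0 allows, equalled 0.0979 to 0.125 CPM (the count scaled to a common library size) per library, for counting error only. The locus of the targeted microRNA, MIR378A, had 0 counts in UNT, both SCR libraries and ZIP 1 and 2 counts in ZIP 2, so the labels could not be checked by it. All 8 genes of a granulocyte precursor list, MPO and ELANE among them, passed the expression filter. Their summed level was 25139 CPM in UNT, 12183 and 12179 in SCR, and 23270.0 and 22609 in ZIP. MPO alone carried most of that sum, at 19021 CPM in UNT, 9966 and 9991 in SCR, and 17049 and 16583 in ZIP. In SCR against UNT 1 of the 8 was higher and 7 lower, beside 32.7% and 32.2% of all genes. In ZIP against UNT 3 were higher and 4 lower, beside 28.5% and 29.7%.

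The mature microRNA against which the ZIP hairpin is directed is shown with its seed (bases 2 to 8) in capitals, from RefSeq (GRCh38.p14, chr5:149732867-149732888, plus strand). Sites for this seed in the members were not searched here.

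hsa-miR-378a-3p: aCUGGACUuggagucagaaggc

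SIGLEC1 (ENSG00000088827, chromosome 20, 3686970 to 3707128, minus strand, GRCh38) had 1 count in UNT, 211 and 234 in SCR, and 0 in both ZIP libraries. On the CPM scale these were 0.0417, 8.31 and 9.10, and 0 and 0. SCR did not overlap the other groups. The order of UNT and ZIP cannot be read from 1 and 0 counts, as the exact 95% counting interval of the ratio of ZIP to UNT ran from 0 to 17.1. The ratio of SCR to UNT was 209, and the single count in UNT sets its size only loosely (exact 95% counting interval 37.3 to 8264). That interval covers counting error only and is no test of a rise, as these values chose the group. None of the 7978 stretches of 50 bases in its annotated transcripts occurred in a transcript of another gene. In the libraries where SIGLEC1 was high, interferon response genes were also high: of 32 genes tested 31 were higher in SCR than in UNT (32.7% of all genes were) and 32 were lower in ZIP than in SCR (33.2% of all genes were). Their list summed to 283 CPM in UNT, 979.8 and 968 in SCR, and 384 and 387 in ZIP. In ZIP against UNT 16 of the 32 were higher, 2 lower and 14 did not pass, beside 28.5% higher and 29.7% lower of all genes. Some of the 32 passed the expression filter only through SCR, which favoured their direction in advance, and their number was not counted. OAS2, for example, had 2 counts in UNT, 454 and 490 in SCR, and 4 in each ZIP library. Monocyte and macrophage markers also stood higher in SCR, in 14 of 15 genes against UNT, beside 32.7% of all genes. In ZIP against SCR 2 were higher and 12 lower, beside 32.2% and 33.2%. Against UNT 10 were higher and 0 lower in ZIP, beside 28.5% and 29.7%. VCAN among these markers passed the expression filter only through SCR, which favoured its direction in advance. The number of other such markers was not counted. The summed level of that list was 704 CPM in UNT, 1793 and 1800.1 in SCR, and 1879 and 1878 in ZIP. LYZ, the lysozyme gene, carried most of that sum in SCR and ZIP, at 323 CPM in UNT, 1115 and 1120.4 in SCR, and 1392 and 1394 in ZIP, and rose by 0.32 ± 0.02 in ZIP against SCR while 12 other markers fell. The part of these lists in the SIGLEC1 values was not tested. In bulk RNA, fewer cells with a transcript and less transcript per cell cannot be told apart.

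By the distance between centred log2(CPM + 0.1) values over the 5 libraries, the genes most like SIGLEC1 were SPP1 (osteopontin), FCER2 (the low-affinity IgE receptor), OAS2 (an interferon-induced oligoadenylate synthetase), VCAN (a matrix proteoglycan) and CSF1 (the macrophage growth factor). SPP1, the nearest at a distance of 0.482, stood at 1.21 CPM in UNT, 74.2 and 71.3 in SCR, and 0.914 and 1.12 in ZIP. CSF1, the last of the 5, was at a distance of 0.979. On the same measure SIGLEC9 ranked 124 and SIGLEC7 ranked 234 among 15831 genes, nearer than the other tested members, while SIGLEC12 ranked 1171 and CD33 ranked 9129. These ranks describe 5 libraries and carry no test.

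CD22 (ENSG00000012124, chromosome 19, 35319261 to 35347355, plus strand) had 0 counts in UNT, 9 and 8 in SCR, and 0 in both ZIP libraries. It did not pass the expression filter and was not tested in any comparison. Taking 3 counts for a whole group as the floor, SCR stood 6.08-fold above the floor of ZIP and 2.66-fold above that of UNT. The counting error of the 17 SCR counts is left out of these ratios, so they are not strict lower bounds. Of 10 B cell markers, MS4A1, BLK and VPREB1 had no count in any library. The summed level of the list was 16.0 CPM in UNT, 31.1 and 29.6 in SCR, and 13.1 and 14.1 in ZIP, and FCER2 alone made up 24.0 and 22.3 CPM of the SCR sums. In SCR against UNT FCER2 was the 1 marker higher of 4 tested and 2 were lower, beside 32.7% and 32.2% of all genes. BANK1 fell by 1.46 ± 0.14 and CD79A fell by 0.87 ± 0.20. FCER2 passed the expression filter only through SCR, with 8 counts in UNT, 609 and 574 in SCR, and 8 and 9 in ZIP. In ZIP against SCR BANK1 rose by 1.49 ± 0.11, and FCER2 and CD79A fell, beside 32.2% higher and 33.2% lower of all genes. The part of these markers in the CD22 counts was not tested.

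**Figure D1:**
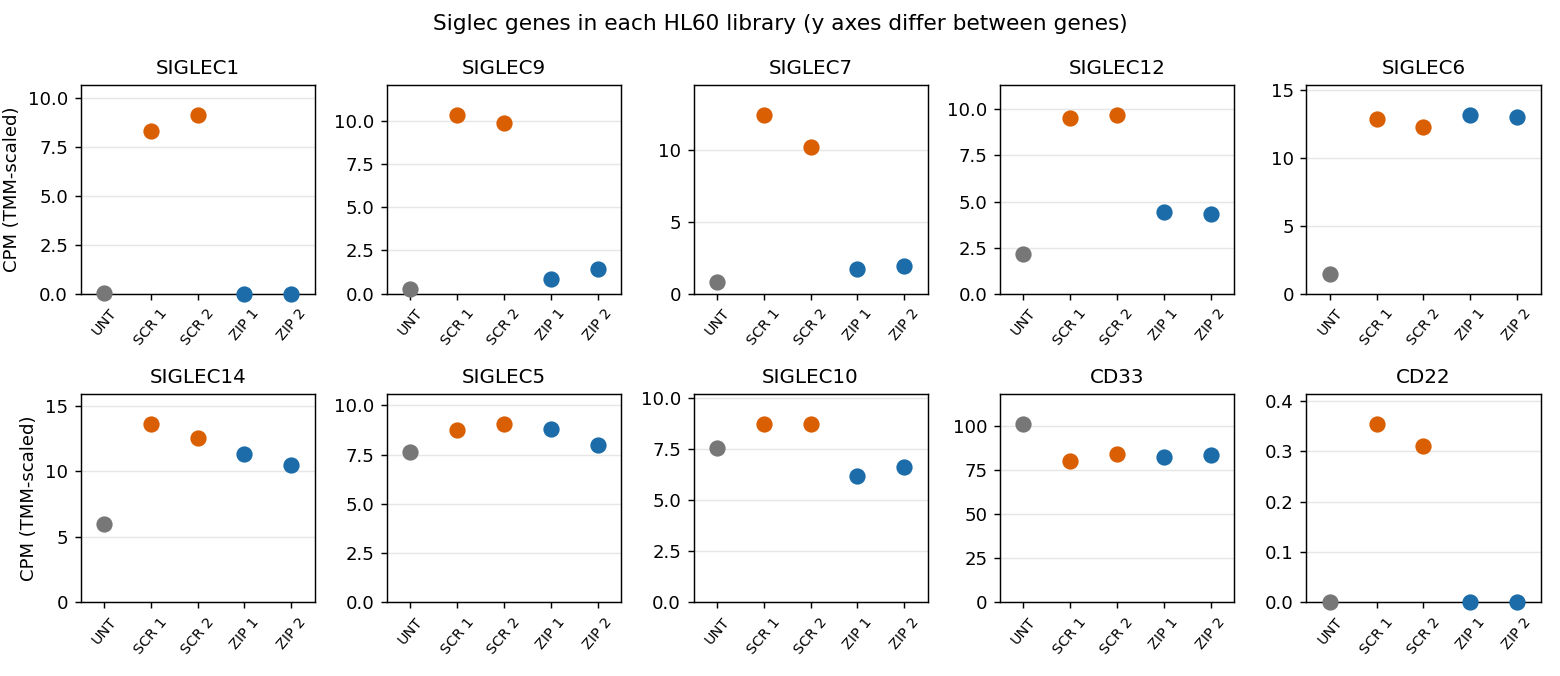
Level of each Siglec gene (y axis, TMM-scaled CPM, a separate scale from 0 for each gene) in the untransduced library (grey), the 2 SCR libraries (orange) and the 2 ZIP libraries (blue), 1 point per library. SIGLEC1, SIGLEC9, SIGLEC7, SIGLEC12, SIGLEC14, SIGLEC10 and CD22 are highest in both SCR libraries, CD22 on 9 and 8 counts. SIGLEC6 is at 12.3 to 13.2 CPM in all 4 transduced libraries and 1.42 in the untransduced one, and CD33 lies between 79.8 and 101 CPM throughout.

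The remaining 8 members, all from 1 stretch of chromosome 19, were tested. In SCR against UNT 5 were higher and 1 lower, beside 32.7% and 32.2% of all 15832 genes tested, 64.9% in either direction (edgeR quasi-likelihood test, adjusted p under 0.05). All 5 were higher by at least 2-fold, as were 14.5% of all genes. Over the 8 tested members the median log2 fold change was 1.63, beside 0.02 for all genes. In ZIP against SCR 0 were higher and 5 lower, beside 32.2% and 33.2% of 14643 genes and 65.4% in either direction. Of the 5, 3 were lower by at least 2-fold, as were 11% of all genes. Here the median was -0.35, beside -0.00184. In ZIP against UNT 5 were again higher and 1 lower, beside 28.5% and 29.7% and 58.2% in either direction, with 4 higher by at least 2-fold beside 8.7%, and a median of 0.94 beside 0.00153. The comparisons share libraries, so their values are set side by side and not correlated. The labels do not say whether replicates came from separate cultures. A p-value here therefore reflects only how far the sequenced libraries differ, and that spread may be technical.

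SIGLEC9 (ENSG00000129450, 51124908 to 51136651, plus strand), an inhibitory receptor of monocytes and neutrophils, stood at 0.250 CPM in UNT, 10.3 and 9.88 in SCR, and 0.849 and 1.41 in ZIP. The 3 groups did not overlap, with ZIP between UNT and SCR and far nearer to UNT. It rose by 5.31 ± 0.31 (SE) on the log2 scale in SCR against UNT (edgeR adjusted p = 6.0e-13) and fell by 3.20 ± 0.17 in ZIP against SCR (edgeR adjusted p = 1.1e-12). ZIP remained above UNT by 2.11 ± 0.51 (edgeR adjusted p = 0.00111), on 26 and 34 counts against 6. With 6 counts in UNT, SIGLEC9 passed the expression filter through the transduced libraries.

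SIGLEC7 (ENSG00000168995, 51142299 to 51153526, plus strand), an inhibitory receptor best known from natural killer cells and also found on monocytes, stood at 0.793 CPM in UNT, 12.5 and 10.3 in SCR, and 1.73 and 1.90 in ZIP. The groups again did not overlap. It rose by 3.83 ± 0.24 in SCR against UNT (edgeR adjusted p = 1.5e-12), fell by 2.65 ± 0.15 in ZIP against SCR (edgeR adjusted p = 2.5e-12) and was 1.18 ± 0.34 higher in ZIP than in UNT (edgeR adjusted p = 0.00463). The summed level of 10 natural killer and T cell markers was 12.8 CPM in UNT, 24.2 and 22.3 in SCR, and 13.5 and 13.8 in ZIP. Most of it was NKG7, a granule protein gene that lies in the same stretch of chromosome 19, and 3 of the 10 markers had at most 3 counts in every library. Their part in the SIGLEC7 values was not tested. Annotated genes on the opposite strand overlap 464 bases of SIGLEC7 exons and 425 of SIGLEC6, and without strand their reads cannot be told apart.

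SIGLEC12 (ENSG00000254521, 51491357 to 51501789, minus strand), which has lost the arginine needed to bind sialic acid in humans, stood at 2.17 CPM in UNT, 9.54 and 9.68 in SCR, and 4.44 and 4.34 in ZIP. The ZIP libraries lay clear of both other groups. It rose by 2.14 ± 0.17 in SCR against UNT (edgeR adjusted p = 1.8e-10), fell by 1.13 ± 0.11 in ZIP against SCR (edgeR adjusted p = 2.1e-08) and was 1.02 ± 0.20 higher in ZIP than in UNT (edgeR adjusted p = 0.000123).

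SIGLEC6 (ENSG00000105492, 51519525 to 51531856, minus strand), known from placental trophoblast, mast cells and B cells, had a different order of groups. It stood at 1.42 CPM in UNT, 12.9 and 12.3 in SCR, and 13.2 and 13.0 in ZIP. It rose by 3.15 ± 0.18 in SCR against UNT and by 3.20 ± 0.17 in ZIP against UNT (edgeR adjusted p = 3.1e-13 and 3.2e-13). The difference between ZIP and SCR was 0.06 ± 0.08 (edgeR adjusted p = 0.544), with a 95% interval of -0.11 to 0.23. Of the mean rise over UNT seen in SCR on the CPM scale, ZIP held 105% for SIGLEC6, 69.1% for SIGLEC14, 29.9% for SIGLEC12, 9.68% for SIGLEC7 and 8.90% for SIGLEC9. Among 11 eosinophil, basophil and mast cell markers, TPSAB1 had no count in any library. The list summed to 711 CPM in UNT, 195 and 197 in SCR, and 112 and 108 in ZIP, and its part in the SIGLEC6 values was not tested.

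SIGLEC14 (ENSG00000254415, 51642553 to 51646801, minus strand), the activating member, stood at 6.01 CPM in UNT, 13.6 and 12.6 in SCR, and 11.3 and 10.5 in ZIP. It rose by 1.12 ± 0.13 in SCR and by 0.86 ± 0.13 in ZIP against UNT (edgeR adjusted p = 5.6e-08 and 5.3e-06). It fell by 0.26 ± 0.09 in ZIP against SCR (edgeR adjusted p = 0.0134), but this call was lost without ZIP 2 (edgeR adjusted p = 0.0897), without SCR 1 (edgeR adjusted p = 0.120) and with DESeq2 (adjusted p = 0.198). TYROBP, which encodes its adaptor DAP12 and was named for that role after its values were seen, stood at 76.2 CPM in UNT, 105 and 106 in SCR, and 68.8 and 62.0 in ZIP. TYROBP rose by 0.48 ± 0.05 in SCR against UNT and fell by 0.69 ± 0.04 in ZIP against SCR (edgeR adjusted p = 7.9e-09 and 4.0e-12).

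SIGLEC5 (ENSG00000105501, 51611927 to 51645545, minus strand) is the inhibitory partner of SIGLEC14 and nearly identical to it at the end that binds sialic acid. It stood at 7.63 CPM in UNT, 8.75 and 9.06 in SCR, and 8.82 and 7.98 in ZIP, and SCR and ZIP overlapped. Its log2 difference was 0.22 (95% interval -0.04 to 0.49) in SCR against UNT, 0.14 (-0.12 to 0.41) in ZIP against UNT and -0.08 (-0.29 to 0.13) in ZIP against SCR, and no difference passed (edgeR adjusted p = 0.134, 0.351 and 0.521). SIGLEC14 took 44.0% of the summed counts of the pair in UNT (95% Wilson interval 38.8 to 49.5), 60.8% (56.8 to 64.8) and 58.1% (54.0 to 62.1) in SCR, and 56.2% (52.3 to 60.1) and 56.7% (52.1 to 61.2) in ZIP. These intervals cover counting error only, and with 1 UNT library the share was not tested between groups. The pair is uncertain as counted: 678 stretches of 50 bases, 32.8% of those in SIGLEC14 transcripts and 29.3% of those in SIGLEC5 transcripts, occur in both genes, and their annotated exons overlap by 69 bases. Also, 1877 of the 2311 stretches in SIGLEC5 occur in AC018755.2, an annotated gene over the same exons that is not among the entries analysed. With both counted as 1 entry, the log2 fold change was 0.69 in SCR and 0.51 in ZIP against UNT and -0.18 in ZIP against SCR (edgeR adjusted p = 7.5e-07, 7.2e-05 and 0.0228).

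SIGLEC10 (ENSG00000142512, 51410021 to 51417803, minus strand), an inhibitory receptor of B cells and monocytes that binds CD24 and CD52, stood at 7.55 CPM in UNT, 8.75 and 8.75 in SCR, and 6.20 and 6.65 in ZIP. It fell by 0.45 ± 0.11 in ZIP against SCR (edgeR adjusted p = 0.00092), a call that DESeq2 did not make (adjusted p = 0.0569). The differences from UNT did not pass, at 0.21 (95% interval -0.05 to 0.48) for SCR and -0.24 (-0.51 to 0.04) for ZIP (edgeR adjusted p = 0.151 and 0.135). Scaling by library totals alone, which moved the median of all genes in SCR against UNT from 0.02 to 0.13, made SIGLEC5 and SIGLEC10 pass as higher in SCR (log2 fold changes 0.33 and 0.32, edgeR adjusted p = 0.0267 and 0.0312). A pair of annotated antisense genes overlaps 830 bases of SIGLEC10 exons, with 5 to 11 counts each per library, and the use of strand in counting was not stated in the labels.

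CD33 (ENSG00000105383, 51225064 to 51243860, plus strand) was the most abundant member in every library. It stood at 101 CPM in UNT, 79.8 and 84.1 in SCR, and 82.5 and 83.6 in ZIP, so SCR and ZIP overlapped and UNT lay above both. It fell by 0.30 ± 0.04 in SCR against UNT and by 0.28 ± 0.04 in ZIP against UNT (edgeR adjusted p = 1.1e-06 and 3.3e-06). The difference between ZIP and SCR was 0.02, with a 95% interval of -0.05 to 0.09 (edgeR adjusted p = 0.649).

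**Figure D2:**
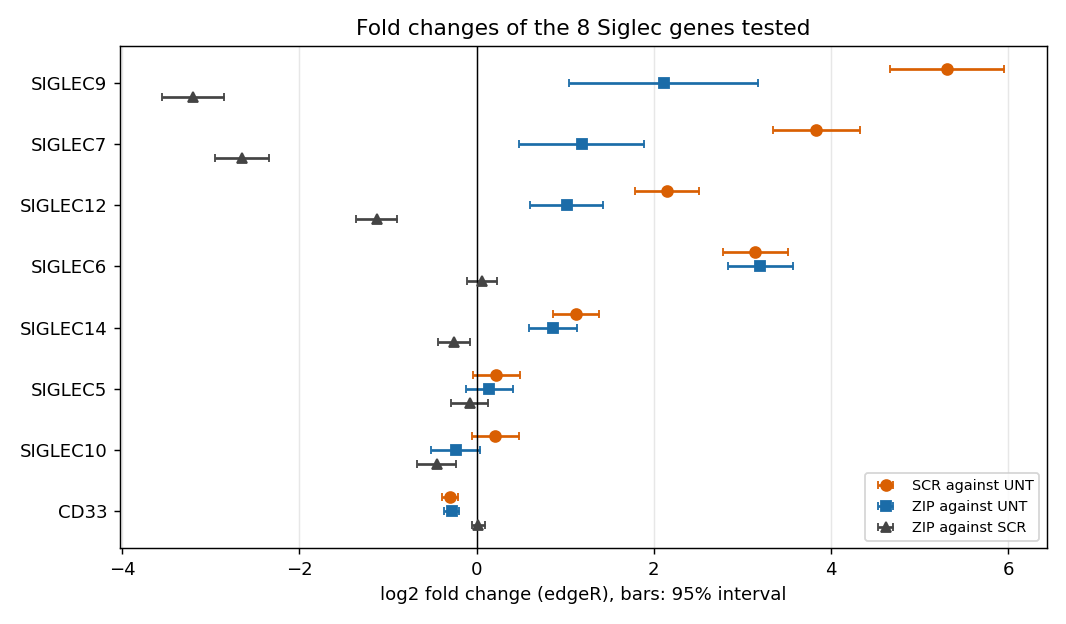
Log2 fold change (x axis, edgeR) of the 8 Siglec genes tested (y axis) in SCR against UNT (orange circles), ZIP against UNT (blue squares) and ZIP against SCR (grey triangles), with 95% intervals as bars. For SIGLEC6 the values against UNT, 3.15 and 3.20, nearly coincide, while for SIGLEC9 they are 5.31 and 2.11.

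Levels of different members were compared per kilobase of annotated exon (GENCODE 29). Summed over the members, the level was 27.1 CPM per kb in UNT, 46.6 and 45.6 in SCR, and 33.0 and 32.7 in ZIP. Without CD33 it was 10.2 in UNT, 33.2 and 31.5 in SCR, and 19.2 and 18.7 in ZIP. CD33 therefore made up 62.3% of the summed level in UNT, 28.7% and 30.9% in SCR, and 41.9% and 42.8% in ZIP. Lengths joined the exons of all annotated transcripts, 5975 bases for CD33 and 2043 for SIGLEC7, so these shares and the order of members depend on annotation. Without length scaling the members summed to 127 CPM in UNT, 165 and 166 in SCR, and 129 in each ZIP library. Of these sums, members other than CD33 held 25.9, then 85.0 and 81.9, then 46.5 and 45.8 CPM.

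The order of members changed with the group. In UNT it ran from CD33 (16.9 CPM per kb) through SIGLEC5 (3.23), SIGLEC14 (2.89), SIGLEC10 (2.06), SIGLEC12 (0.986), SIGLEC6 (0.551), SIGLEC7 (0.388) and SIGLEC9 (0.0986) to SIGLEC1 (0.00529), with no replicate to give a spread. In SCR, SIGLEC14 (6.53 and 6.03 CPM per kb) and SIGLEC7 (6.09 and 5.02) came after CD33 (13.4 and 14.1), and these neighbours overlapped. SIGLEC6 (5.01 and 4.77), SIGLEC12 (4.33 and 4.40), SIGLEC9 (4.07 and 3.89), SIGLEC5 (3.71 and 3.84), SIGLEC10 (2.39 in each) and SIGLEC1 (1.05 and 1.15) followed in SCR without overlap. In ZIP, SIGLEC14 (5.44 and 5.02 CPM per kb) and SIGLEC6 (5.11 and 5.06) followed CD33 and overlapped. SIGLEC5 (3.74 and 3.38), SIGLEC12 (2.02 and 1.97) and SIGLEC10 (1.69 and 1.81) came next in ZIP without overlap, and SIGLEC7 (0.847 and 0.931) and SIGLEC9 (0.334 and 0.553) came last among the members with a count.

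**Figure D3:**
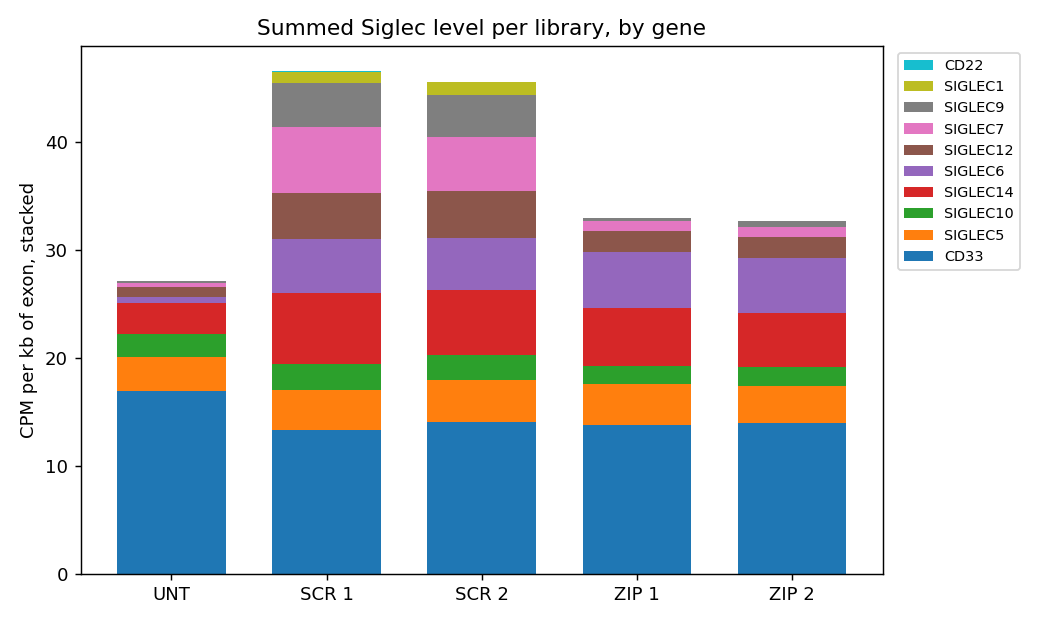
Summed level of the Siglec members (y axis, CPM per kb of exon) in each library (x axis), stacked by gene. The bottom segment, CD33, is 13.4 to 16.9 CPM per kb in every library, and the segments above it add 10.2 for UNT, 33.2 and 31.5 for the SCR pair and 19.2 and 18.7 for the ZIP pair.

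The 8 tested members lie within 522 kb (chr19:51124908-51646801), together with 3 other Siglec family entries and 11 other gene entries. In SCR against UNT 2 of the 6 other genes tested there were higher and 2 lower, beside 32.7% and 32.2% of all genes. In ZIP against SCR 0 of 5 were higher and 3 lower, beside 32.2% and 33.2%. SIGLEC9, SIGLEC7 and the pseudogene SIGLEC17P start within 42.4 kb of each other and were all highest in SCR. Farther from SIGLEC9, VSIG10L at 207 kb, NKG7 at 247 kb and SIGLEC12 at 366 kb, among others, were also highest in SCR. SIGLEC17P had 10 counts in UNT, 48 and 56 in SCR, and 15 and 12 in ZIP, and fell by 2.04 ± 0.28 in ZIP against SCR (edgeR adjusted p = 1.9e-06). CD33, highest in UNT, starts 100.2 kb from SIGLEC9.

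**Figure D4:**
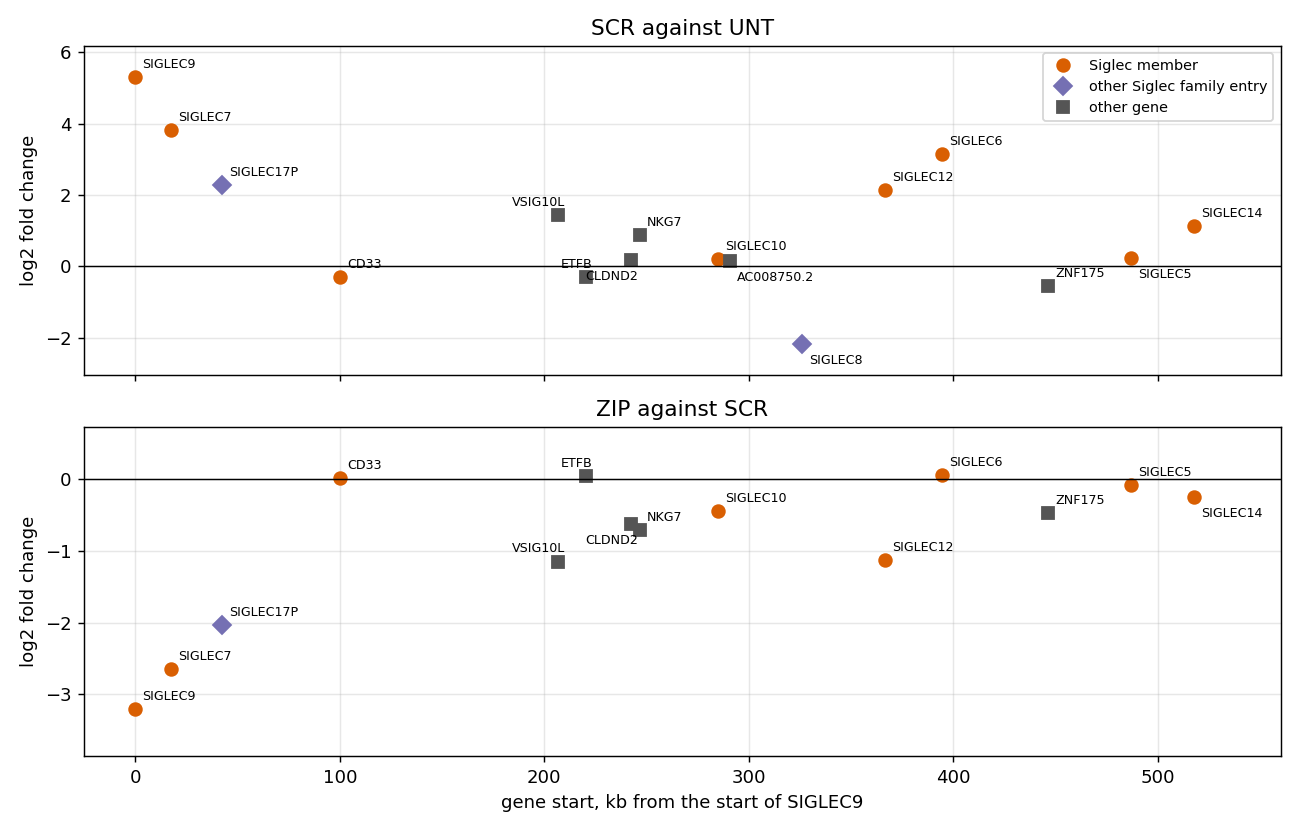
Log2 fold change (y axis) of each gene tested in the Siglec stretch of chromosome 19 against the distance of its start from that of SIGLEC9 (x axis, kb), for SCR against UNT (top) and ZIP against SCR (bottom). Orange circles are members, purple diamonds other Siglec entries and grey squares other genes. SIGLEC9 and SIGLEC7 at the left end have the highest values in the top panel (5.31 and 3.83) and the lowest in the bottom panel (-3.20 and -2.65).

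Promoter sequence (RefSeq, GRCh38.p14, 250 bases before to 50 after each start) was matched for 9 of the 10 members, all but SIGLEC1. Stretches free of annotated exons are shown for SIGLEC9 and SIGLEC7, both highest in SCR, and for CD33, highest in UNT. Capitals mark CTTCCTGT, a form of the GGAA core bound by ETS factors, chosen after the sequences were read.

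SIGLEC9 (chr19:51124656-51124905, plus strand): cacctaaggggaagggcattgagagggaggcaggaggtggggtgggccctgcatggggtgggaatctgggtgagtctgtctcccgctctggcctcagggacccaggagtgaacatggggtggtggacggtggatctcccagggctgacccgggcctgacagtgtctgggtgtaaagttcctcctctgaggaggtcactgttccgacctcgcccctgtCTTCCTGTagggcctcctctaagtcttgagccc

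SIGLEC7 (chr19:51142209-51142298, plus strand): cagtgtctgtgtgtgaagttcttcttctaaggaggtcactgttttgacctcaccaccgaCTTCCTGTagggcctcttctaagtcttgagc

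CD33 (chr19:51224830-51225063, plus strand): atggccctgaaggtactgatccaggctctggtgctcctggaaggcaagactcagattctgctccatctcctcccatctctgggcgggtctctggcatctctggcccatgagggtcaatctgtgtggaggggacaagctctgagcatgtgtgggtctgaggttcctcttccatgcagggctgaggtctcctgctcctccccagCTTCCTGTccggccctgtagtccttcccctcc

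The letters CTTCCTGT, searched on both strands, were found for 7 of the 9 members (CD33, SIGLEC5, SIGLEC6, SIGLEC7, SIGLEC9, SIGLEC12 and SIGLEC14) and in 2.99% of all 35116 promoter windows. The windows of several members resemble each other, so these matches are not independent: the aligned part was 89.7% identical between SIGLEC9 and SIGLEC7 over 116 columns, 85.1% between SIGLEC9 and SIGLEC12 over 276, and 95.6% between SIGLEC5 and SIGLEC14 over 251. The members with the letters thus include genes that rose in SCR and CD33, which fell. The form searched for the ETS factor PU.1, GAGGAAGT, was found for 0 members (2.59% of all windows). Its reverse strand shares 6 letters with CTTCCTGT. The interferon-stimulated response element, searched as GAAA, any 2 bases and GAAA, was found for 0 members (3.57% of all windows). The gamma-activated site TTCNNNGAA was found for SIGLEC6 and SIGLEC12 (7.66% of all windows). Each match is a match of letters only.

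Further Siglec family entries were scarce. Of 7 in the table, MAG had no count in any library and SIGLECL1 had 1 count in SCR 2. SIGLEC16, annotated as a pseudogene, had 1 count in UNT, 31 and 22 in SCR, and 6 in each ZIP library, and SIGLEC11 had 8, then 19 and 21, then 6 and 11. Their transcripts share 175 and 230 stretches of 50 bases with SIGLEC10. The eosinophil receptor SIGLEC8 had 11 counts in UNT, 4 and 1 in SCR, and 6 and 5 in ZIP. SIGLEC15, a receptor of osteoclasts, had 1 count in UNT, 10 and 6 in SCR, and 11 and 7 in ZIP. Among these entries SIGLEC16 and SIGLEC15 met the expression filter only through SCR libraries and SIGLEC8 only through UNT, and SIGLEC11 through SCR and ZIP 2, so the counts are given without a test.

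Genes that work with the Siglecs, and proteins reported to carry their ligands, were described by lists. In each list some genes may have passed the expression filter only through SCR, which favours their direction in advance. Their number was not counted. Of 15 signalling partners, the kinases, phosphatases and adaptors through which the receptors act, 13 were higher and 0 lower in SCR than in UNT, beside 32.7% and 32.2% of all genes (median log2 fold change 0.91, beside 0.02). In ZIP against SCR 2 were higher and 11 lower, beside 32.2% and 33.2% (median -0.69, beside -0.00184). In ZIP against UNT 9 were higher and 4 lower, beside 28.5% and 29.7%. PTPN6, which encodes SHP-1, stood at 312 CPM in UNT, 533 and 535 in SCR, and 319 and 314 in ZIP, and fell by 0.75 ± 0.02 in ZIP against SCR. The kinase LYN, which phosphorylates the inhibitory motifs, stood at 46.8 CPM in UNT, 138 and 142 in SCR, and 75.7 and 75.9 in ZIP, and fell by 0.89 ± 0.03 in the same comparison.

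Of 5 genes of sialic acid synthesis and activation, 2 were higher and 3 lower in ZIP than in SCR, beside 32.2% and 33.2% of all genes. GNE, the first enzyme of the pathway, stood at 26.2 CPM in UNT, 45.4 and 47.5 in SCR, and 23.4 and 24.9 in ZIP. NANP, which removes the phosphate from the product, ran opposite, at 23.7 CPM in UNT, 9.85 and 11.3 in SCR, and 21.5 and 23.8 in ZIP. NANS, the sialic acid synthase, rose by 0.27 ± 0.04 in ZIP against SCR. Of 12 sialyltransferases tested 1 was higher and 9 lower in ZIP than in SCR, beside the same shares (median -0.80, beside -0.00184). Of 13 tested against UNT 10 were higher and 1 lower in SCR, beside 32.7% and 32.2% of all genes, and 4 were higher and 2 lower in ZIP, beside 28.5% and 29.7%. ST3GAL1, which sialylates core O-glycans, stood at 44.3 CPM in UNT, 74.1 and 79.2 in SCR, and 39.4 and 39.2 in ZIP. ST8SIA4, a polysialyltransferase, and ST3GAL2 fell by 1.14 ± 0.07 and 0.74 ± 0.05 in ZIP against SCR.

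Among 5 tested genes of sialic acid removal and O-acetylation 3 were higher and 2 lower in ZIP than in SCR, beside 32.2% and 33.2% of all genes. The lysosomal sialidase NEU1 stood at 42.0 CPM in UNT, 77.9 and 78.2 in SCR, and 38.4 and 35.4 in ZIP. CTSA, the protein that protects NEU1 in the lysosome, moved the other way and rose by 0.85 ± 0.03 in ZIP against SCR, as did the membrane sialidase NEU3 by 1.20 ± 0.06. Of 7 tested proteins reported to carry Siglec ligands 6 were higher and 0 lower in SCR than in UNT, beside 32.7% and 32.2% of all genes. In ZIP against SCR 0 were higher and 7 lower, beside 32.2% and 33.2% (median -1.62, beside -0.00184). PTPRC, the leukocyte phosphatase CD45, stood at 86.8 CPM in UNT, 306 and 295 in SCR, and 94.7 and 101 in ZIP. The adhesion receptor CD44 was at 74.7 CPM in UNT, 255 and 263 in SCR, and 127 and 133 in ZIP. CD52, a ligand of SIGLEC10, was at 3.67 CPM in UNT, 8.59 and 9.25 in SCR, and 0.424 and 0.785 in ZIP, which was below UNT.

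**Figure D5:**
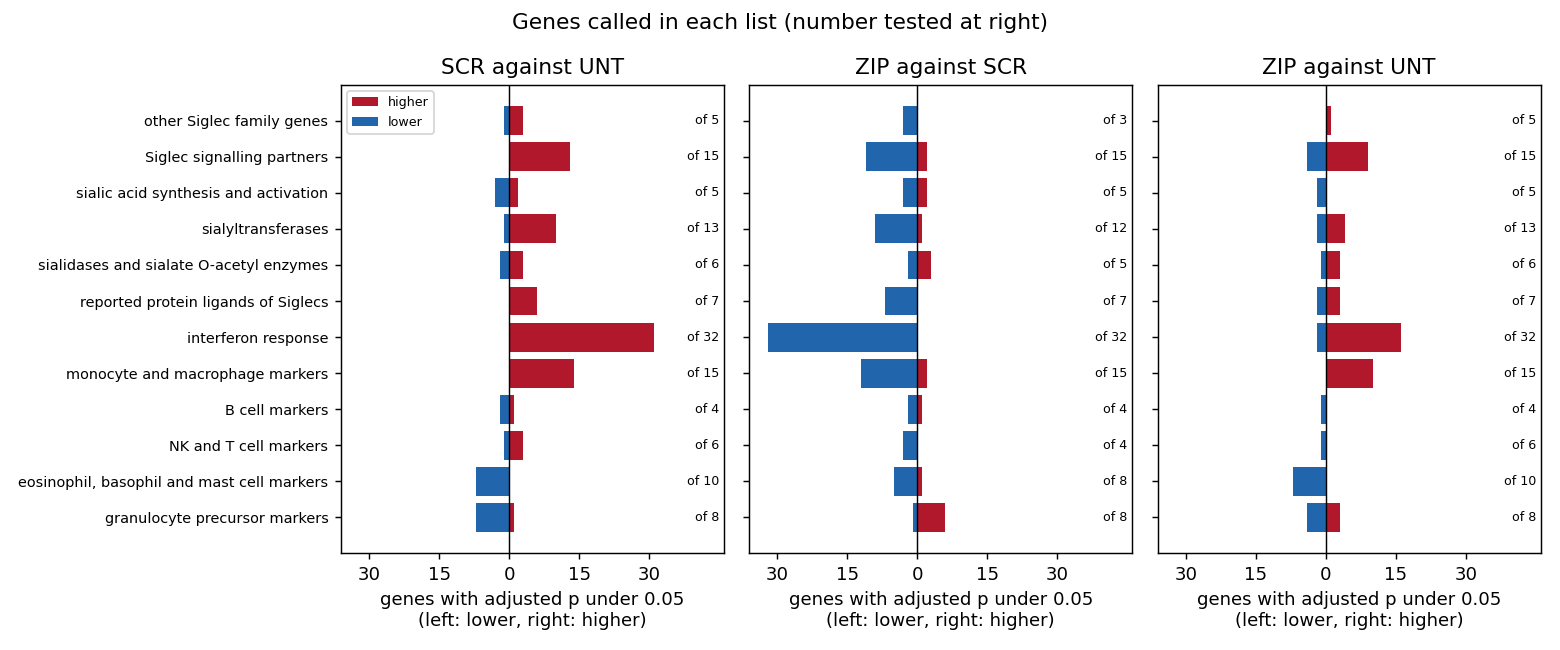
Number of genes with an adjusted p under 0.05 (x axis, lower to the left in blue and higher to the right in red) in each gene list (y axis) for the 3 comparisons, with the number tested at the right of each panel. Of 32 interferon response genes 31 are higher in SCR than in UNT and 32 lower in ZIP than in SCR, and of 15 signalling partners 13 and 11.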

How the data were processed

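Bulk RNA of 5 HL60 libraries was counted per gene by the authors, and the deposited table holds raw counts without normalization for 51055 Ensembl IDs. Bowtie2 and featureCounts are named, per the submitters' processing notes, and TopHat 2, Cufflinks and HTSeq in the series' design text. For the counts themselves, the tool, build and strand setting were not given in the sources used here. The labels name a small RNA library kit, while the table counts whole genes. Columns were matched to libraries by description label. The 44305 IDs found in GENCODE 29 (GRCh38) took symbols and coordinates from it, and 6750 were unnamed.

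Counts were filtered (filterByExpr, minimum count 10, total 15), scaled by TMM and tested with the edgeR 4.0.16 quasi-likelihood test in R 4.3.3, with Benjamini-Hochberg adjustment over all genes at 0.05. ZIP against SCR used 4 libraries. The comparisons with UNT used all 5, so the single UNT library was assumed to vary like the rest. SE is the fold change over the square root of F. The script was tested on simulated data. Members and lists were chosen with earlier results of these data known. The rule named all members, up to 3 genes of smallest p per list in ZIP against SCR and the 5 genes most like SIGLEC1, and the text leaves out most of those of the cell type and interferon lists. A gene the rule named among the signalling partners is not reported here. TYROBP, LYZ, SIGLEC8, SIGLEC15, MAG and SIGLECL1 were named outside this rule, after their values were seen. DESeq2 1.42.0, other scalings, no filter, leaving out libraries, a replicate block and a summed SIGLEC5 and SIGLEC14 entry were the alternatives.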

Additional observations from a re-analysis of the deposited data

How the results depend on the processing

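The count of members called stayed within 1.5 times the reported one under all 25 alternatives run, at 4 to 6 members in ZIP against SCR (4 to 5 when 1 library was left out), 6 to 8 in SCR against UNT and 6 in ZIP against UNT. Replicate numbers share only a number: SCR 1 minus SCR 2 and ZIP 1 minus ZIP 2 correlated at 0.0360 over 14643 genes, and with the replicate block 5 members were called in ZIP against SCR, as without it. UNT is a single library whose label carries no replicate number, so no block was fitted in the comparisons with it. Of 197 values of single members under an alternative, 185 kept their direction and side of the threshold, 4 lost their call, 5 gained one and 3 changed sign. The sign changes were all in ZIP against SCR and near 0: CD33 at -0.040 and SIGLEC6 at -0.00135 with library totals, and CD33 without SCR 1, where leaving out each library in turn gave -0.014 to 0.056. Library totals moved the median of all genes in ZIP against SCR from -0.00184 to -0.061. The cause of the sign changes was not tested. Without an expression filter CD22 was tested and was the member added to the calls in ZIP against SCR and in SCR against UNT. Low counts limit the precision for CD22, SIGLEC8, SIGLEC15, SIGLEC16 and, in UNT, SIGLEC9 and SIGLEC7.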
